A study of Mus musculus with 36 samples.

Results

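Prostaglandin E2 (PGE2) synthesis and reception was followed through 8 genes in mouse bone marrow-derived macrophages. The genes were taken by symbol from the 52636 genes of the deposited count tables. Pla2g4a releases arachidonate, Ptgs1 and Ptgs2 encode the cyclooxygenases, Ptges and Ptges2 encode PGE2 synthases, and Ptger2, Ptger3 and Ptger4 encode PGE2 receptors. Of these 8 genes, 7 passed the filter on low counts and were among the 13748 genes tested. Ptger3 did not pass, with 0 to 12 counts per library.

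RNA-seq was performed on macrophages of N4bp1 knockout (KO) mice and wild-type (WT) mice, grown in M-CSF. All of them received R837 (imiquimod, a small-molecule agonist of the RNA sensor TLR7), so no group here is unstimulated. In each genotype R837 was given for 3 h, for 7 h, or for 3 h before actinomycin D (ActD), an inhibitor of transcription, was added for 0.5, 1, 2 or 4 h. The 12 groups held 3 libraries each, 36 in all, and per the labels the 3 came from 3 individual mice. The labels name C57BL/6N for the wild-type mice. The deleted exons, whether the deletion is limited to a cell type, and the age of the mice are not given in the sources used here. Mice may be shared between conditions, which the labels do not tie together, and p-values may be too small if they are. No spike-in was used here, so every level is relative to the average transcript of its library, and in bulk RNA fewer cells of a type and less RNA per cell cannot be told apart.

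Cytosolic phospholipase A2, the product of Pla2g4a, frees arachidonic acid from membrane phospholipids when calcium and kinases activate it. Cyclooxygenases turn arachidonic acid into prostaglandin H2: COX-1, encoded by Ptgs1, is present in many resting cells, and COX-2, encoded by Ptgs2, is induced by inflammatory signals. Microsomal PGE2 synthase-1, encoded by Ptges, is also inducible and is known for working together with COX-2, whereas Ptges2 encodes a synthase that is less responsive to inflammation. PGE2 leaves the cell and acts on EP receptors; EP2 (Ptger2) and EP4 (Ptger4) raise cyclic AMP, and EP3 (Ptger3) mainly lowers it. In macrophages PGE2 signalling through EP2 and EP4 is known to restrain some inflammatory cytokines.

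A library held between 20.3 and 46.1 M counts, with a median of 26.3 M. All 8 macrophage markers were tested, and their summed level was 20190 to 51430 CPM (counts scaled to a common library size by TMM) in a library. Markers of other cells had lower sums, and several of these were higher in KO: at 7 h the 7 fibroblast markers summed to 29.4 to 31.6 CPM in KO and 15.7 to 18.6 CPM in WT, and the 9 neutrophil markers to 862 to 898 CPM in KO and 571 to 591 CPM in WT. The 5 megakaryocyte markers went the other way at 7 h, with 503 to 543.5 CPM in KO and 684 to 691 CPM in WT. Of these 5, Pf4 had a median of 696 CPM over all libraries, and the next, Ppbp, had 6.26 CPM. Of the 9 neutrophil markers S100a9 (322 CPM) and S100a8 (235.5 CPM) had the highest medians, and Ly6g the lowest (0.211 CPM). The megakaryocyte and neutrophil sums thus follow few genes and do not by themselves measure numbers of those cells. At 7 h 6 of the 7 fibroblast markers and 2 of the 9 neutrophil markers were called higher in KO, and none lower, beside 15.5% of all genes tested called higher and 15.1% lower. The mast cell gene Mcpt4 was at 0 in all 36 libraries and the T cell gene Cd3e in 25 of them. Replicate 1 of KO at 3 h and replicate 2 of WT after 0.5 h of ActD stood apart in 2 genes of neutrophil precursors: Elane was at 17.4 and 22.9 CPM there, with at most 5.05 CPM in any other library, and Ctsg was at 23.7 and 39.5 CPM, with at most 5.40 CPM elsewhere. Mpo, also on the neutrophil list, had no such outlying level, with a median of 7.59 CPM and at most 14.7 CPM in any library. Reads of the targeted gene N4bp1 were 81.3 to 86.0 CPM in KO and 125 to 147 CPM in WT at 3 h. After 4 h of ActD the order was the opposite, with 76.8 to 94.2 CPM in the libraries labelled KO and 53.4 to 63.3 CPM in those labelled WT. KO minus WT of N4bp1 was -0.67 at 3 h, -0.75, -0.62, 0.08 and 0.61 after 0.5, 1, 2 and 4 h of ActD, and -0.29 at 7 h (SE 0.08 each), all called but that at 2 h. The log2 slope of N4bp1 over 0 to 4 h of ActD was 0.01 ± 0.03 per hour in KO and -0.34 ± 0.03 in WT. These slopes differed by 0.35 ± 0.04 (edgeR adjusted p = 1.04e-06), and N4bp1 was among the 9 genes with a called slope difference. The deleted exons are not known here, so the level of N4bp1 alone does not check the labels. KO minus WT of Pla2g7, a phospholipase gene, was 1.05 after 4 h of ActD, against 1.12 at 3 h and 1.13 at 7 h (SE 0.06 each). Ptgs2 and Ptges were higher in the libraries labelled KO at all these times. The directions of these genes are results of the same labels and do not check them. Whether any library is mislabelled was not tested. Directions after ActD are given as the labels have them.

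Ptgs2 (chr1:150100031-150108227, plus strand, GRCm38) and Pla2g4a (chr1:149829618-149961290, minus strand) are neighbours on the same chromosome, 138.7 kb apart, with 3 annotated genes between them and no protein-coding gene among these 3. The windows around the annotated starts of Ptgs2, Ptges and Ptger4 are shown because these are the 3 genes with the widest differences between KO and WT at 7 h. Each runs from 250 bases before to 50 after the start in RefSeq (GRCm38.p6), 5′ to 3′ on the gene's strand. Capitals mark matches, on either strand, to a short list of motifs. Ptgs2 is at chr1:150099781-150100080 on the plus strand, Ptges at chr2:30903248-30903547 on the minus strand and Ptger4 at chr15:5244138-5244437 on the minus strand.
Ptgs2: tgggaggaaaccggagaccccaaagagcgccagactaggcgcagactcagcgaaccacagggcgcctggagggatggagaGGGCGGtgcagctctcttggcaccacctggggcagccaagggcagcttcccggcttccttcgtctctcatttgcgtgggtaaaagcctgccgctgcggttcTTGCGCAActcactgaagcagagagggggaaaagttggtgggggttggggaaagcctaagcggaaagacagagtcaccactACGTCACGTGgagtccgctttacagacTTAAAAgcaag
Ptges: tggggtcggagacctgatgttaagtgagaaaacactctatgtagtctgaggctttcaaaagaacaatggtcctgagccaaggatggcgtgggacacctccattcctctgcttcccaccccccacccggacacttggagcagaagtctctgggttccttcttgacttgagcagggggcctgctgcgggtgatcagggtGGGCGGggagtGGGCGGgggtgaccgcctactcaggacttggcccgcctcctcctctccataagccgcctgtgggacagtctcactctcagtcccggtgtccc
Ptger4: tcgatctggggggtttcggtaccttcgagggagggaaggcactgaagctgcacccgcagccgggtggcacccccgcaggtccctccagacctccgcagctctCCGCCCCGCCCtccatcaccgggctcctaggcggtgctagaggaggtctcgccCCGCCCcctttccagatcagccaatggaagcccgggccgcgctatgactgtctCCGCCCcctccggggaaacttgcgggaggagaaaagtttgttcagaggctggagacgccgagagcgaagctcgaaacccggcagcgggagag
In Ptgs2 these are a GC box (GGGCGG) 170 bases before the annotated start and a C/EBP palindrome (TTGCGCAA) 69 bases before it. After the annotated start come the core of a cyclic AMP response element (ACGTCA), an E-box (CACGTG) that overlaps this core, and the A-T rich box TTAAAA. Where transcription starts in these cells was not tested, so these boxes may lie before the start in use. The palindrome is in 0.183% of all 32851 RefSeq windows, the core in 7.51%, the E-box in 7.15%, the A-T rich box in 19.2% and the GC box in 35.7%. The Ptges window holds 2 GC boxes and the Ptger4 window 4, those of Ptger4 written on the other strand as CCGCCC, its first pair overlapping. The full palindrome of that element, TGACGTCA (1.79% of windows), is in none of the members' windows, which says only that these letters are not in these stretches.

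The 3′ untranslated regions differed in AU-rich pentamers (ATTTA), the letters found in many short-lived inflammatory transcripts. They are shown for Ptgs2, Ptger4, Ptger2 and Pla2g4a because ActD separated these transcripts; each line is a stretch of 30 bases with its ATTTA matches in capitals, from GENCODE M21 transcripts on GRCm38. Ptgs2 is at chr1:150105794-150105823 (plus), Ptger4 at chr15:5234223-5234252 (minus), Ptger2 at chr14:45003506-45003535 (plus) and Pla2g4a at chr1:149829662-149829691 (minus).
Ptgs2: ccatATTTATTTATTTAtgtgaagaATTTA
Ptger4: tattgttggaaatataATTTAaggtATTTA
Ptger2: ATTTAagcagagcagacaaagtttaATTTA
Pla2g4a: acactatttttATTTAaatgtttatATTTA
Over the whole region Ptgs2 held 14 ATTTA in 2445 bases, a number reached by 2.20% of the 11617 tested coding genes with an annotated 3′ untranslated region. Ptger2 held 6 in 1825 bases (reached by 15.4%), Ptger4 held 5 in 1233 bases (19.9%), and Pla2g4a held 4 in 443 bases and Ptges2 4 in 3444 bases (26.4% each). Per length the order was another: Pla2g4a was the densest with 9.03 per kb, a density reached by 1.47% of these genes, before Ptgs2 with 5.73 (5.16%), Ptger4 with 4.06 (11.3%), Ptger2 with 3.29 (17.5%) and Ptges2 with 1.16 per kb (51.8%). The untested Ptger3 held 1 in 878 bases, Ptges held none in 3106 bases and Ptgs1 none in 921 bases, and 66.3% of the tested genes hold at least 1.

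KO macrophages at 7 h of R837 carried 5.06-fold more Ptgs2 transcript than WT, 1.78-fold more Ptges, 1.44-fold more Ptges2 and 3.32-fold less Ptger4. At 3 h Ptgs2 and Ptges were already higher in KO, while Pla2g4a and Ptges2 were lower. Of the 7 genes tested, 4 rose and 1 fell at 7 h, beside 30.6% of all genes tested that were called in either direction, and 4 rose and 2 fell at 3 h, beside 27.8%. The median log2 difference of the 7 genes was 0.23 at 7 h and 0.39 at 3 h, against -0.01 and 0.01 over all genes. Only the Ptgs2, Ptges and Pla2g4a calls at 3 h held without replicate 1 of KO, and Ptgs2 and Ptges alone held without replicate 3 of WT.

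**Figure D1:**
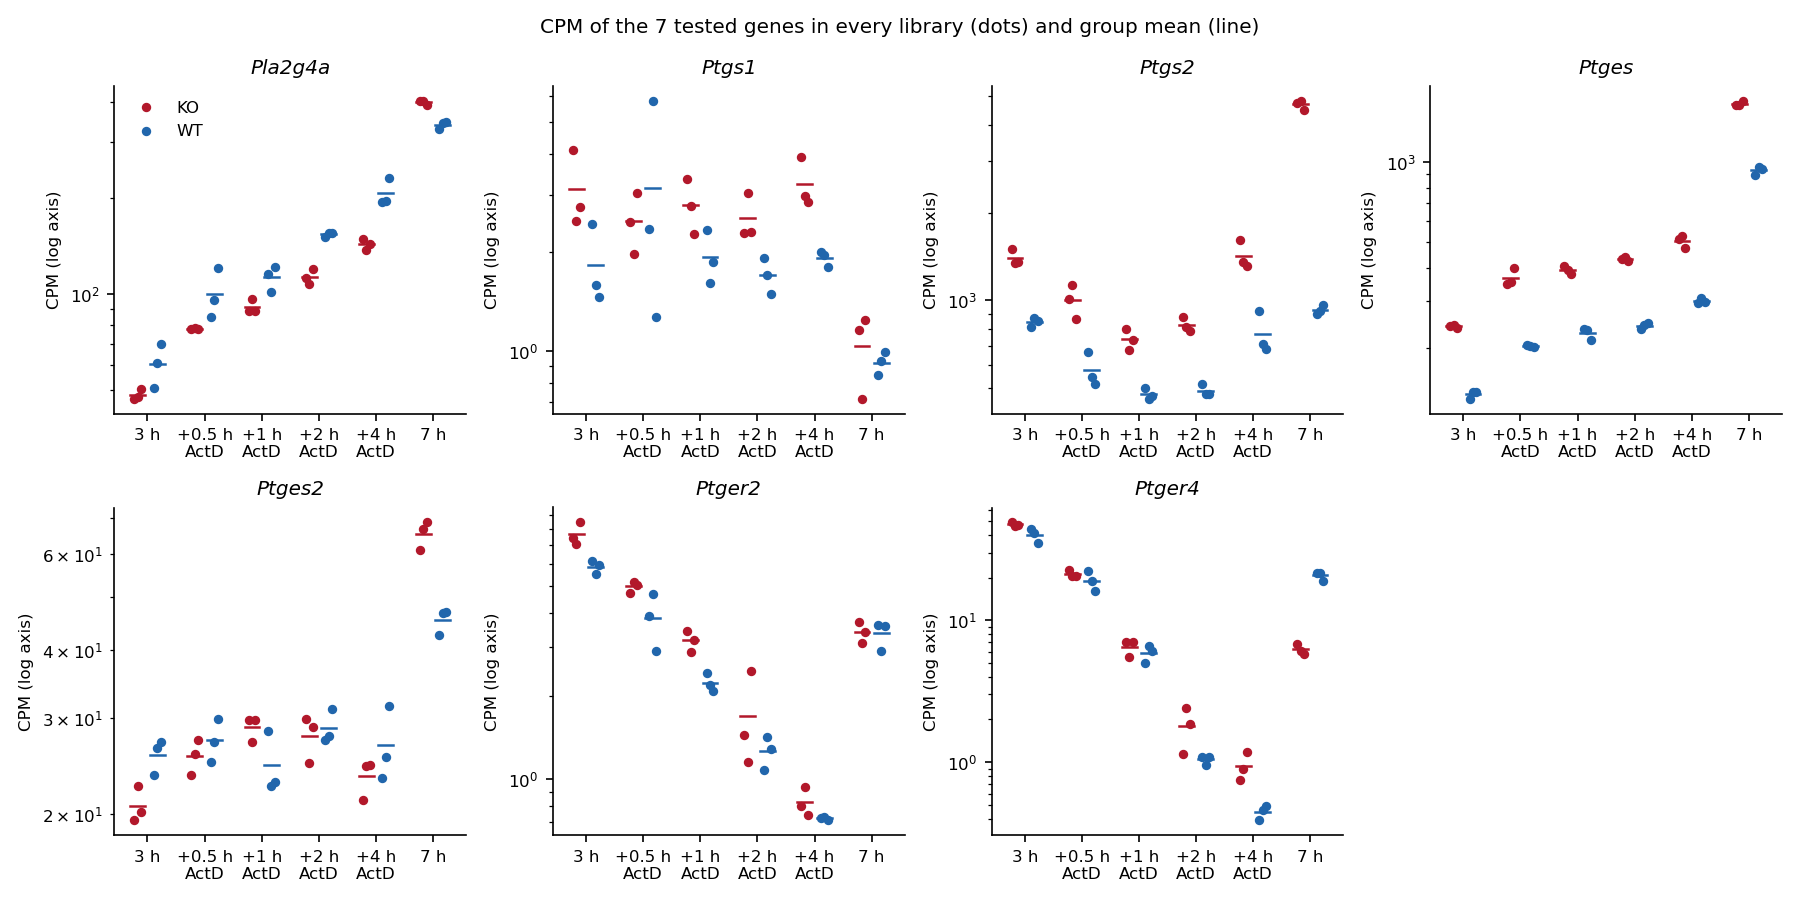
CPM (log axis) of the 7 tested genes in every library, KO in red to the left of WT in blue within each of the 6 conditions; dots are libraries and lines are group means of 3. At 7 h the KO libraries of Ptgs2 lie at 4504 to 4824 CPM, above 897 to 964 CPM in WT, and those of Ptger4 at 5.83 to 6.83 CPM, below 19.0 to 21.6 CPM in WT.

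Arachidonate release was represented by Pla2g4a. At 3 h it was at 47.2, 47.6 and 50.6 CPM in the KO libraries, against 51.0, 60.8 and 69.7 CPM in the WT libraries. The groups did not overlap, the lowest WT library lay next to the KO libraries, and the WT libraries were more spread than those of KO. The log2 difference was -0.32 ± 0.09 (SE, n = 3 libraries a group; edgeR quasi-likelihood test, Benjamini-Hochberg adjusted p = 0.00842). It was -0.21 and not called without WT replicate 3. Scaling to a list of ribosomal and elongation factor genes, which shifted the median of all genes in this comparison by 0.20, gave -0.12, also not called.

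At 7 h the order of the genotypes turned: Pla2g4a was at 392 to 402.5 CPM in KO and at 329 to 345 CPM in WT, again with no overlap. This difference of 0.23 ± 0.09 (edgeR adjusted p = 0.0386) lay near the threshold. It was not called without any single library of the 6, with the DESeq2 test (0.22, adjusted p = 0.0706), with DESeq2 size factors in edgeR (0.22) or with library totals alone (0.13). The increase between the times was far larger than either difference. Pla2g4a was 8.23-fold higher at 7 h than at 3 h in KO (log2 3.04 ± 0.10) and 5.60-fold higher in WT (2.49 ± 0.09), and the change itself differed between the genotypes by 0.56 ± 0.13 (edgeR adjusted p = 0.00178).

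Of the cyclooxygenases, Ptgs2 was abundant and Ptgs1 was at a few CPM or less. Ptgs2 was at 4741, 4824 and 4504 CPM in KO at 7 h, against 897, 921 and 964 CPM in WT. It took 0.431 to 0.460% of all counts in these KO libraries, where it ranked 15 or 16 among all genes, and 0.0914 to 0.0983% in WT, where it ranked 135 to 153. The groups were far apart, with a log2 difference of 2.34 ± 0.10 (edgeR adjusted p = 6.57e-22). At 3 h Ptgs2 was at 1505, 1345 and 1352 CPM in KO, against 812, 872 and 849 CPM in WT. The lowest KO library lay well above the highest WT library, and the log2 difference was 0.73 ± 0.09 (edgeR adjusted p = 1.55e-07).

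The genotypes differed in the course of Ptgs2 after 3 h. In KO it was 3.35-fold higher at 7 h than at 3 h (log2 1.74 ± 0.10). In WT the difference between 7 h and 3 h did not pass the test (0.13 ± 0.09, edgeR adjusted p = 0.218; 0.18 and adjusted p = 0.0962 with DESeq2), although the 7 h libraries all lay above the 3 h libraries. It was called when only these 2 groups were fitted (0.16, edgeR adjusted p = 0.00716). The change over time differed between KO and WT by 1.61 ± 0.13 (edgeR adjusted p = 4.46e-12). Marker sums of fibroblasts and neutrophils, given above, were also higher in KO at 7 h, and at 3 h the fibroblast sum was 28.7 to 30.8 CPM in KO and 14.1 to 16.0 CPM in WT. The neutrophil sums at 3 h overlapped, with 596.5 to 716.5 CPM in KO and 605 to 706 CPM in WT. Dendritic cell markers summed to 179 to 186 CPM in KO and 95.3 to 101 CPM in WT at 7 h. At 3 h they summed to 152.5 to 172 CPM in KO and 128 to 138 CPM in WT. B and plasma cell markers summed to 70.4 to 74.1 CPM in KO and 39.7 to 47.3 CPM in WT at 7 h. At 3 h they summed to 104 to 110 CPM in KO and 56.25 to 61.1 CPM in WT. The mast cell sum was also higher in KO at both times, and the megakaryocyte sum was lower. The part of other cells in the Ptgs2 and Ptges results was not tested.

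Ptgs1 was at 4.10, 2.49 and 2.76 CPM in KO at 3 h, against 2.43, 1.59 and 1.46 CPM in WT. The lowest KO library lay just above the highest WT library. The difference of 0.80 ± 0.30 (edgeR adjusted p = 0.0463) was also not called without WT replicate 2, without WT replicate 3 or with library totals alone. It was 0.53 and not called without replicate 1 of KO, one of the pair of libraries that stood apart in Elane and Ctsg. The other of that pair, replicate 2 of WT after 0.5 h of ActD, held the highest Ptgs1 of all 36 libraries, 5.81 CPM. In that condition KO minus WT was -0.36 ± 0.29 with it and 0.52 without it, neither called, and -0.75 and called without WT replicate 3 (adjusted p = 0.0346). The part of neutrophil precursor RNA in the Ptgs1 values was not tested. At 7 h Ptgs1 was at 0.714 to 1.24 CPM in KO and 0.841 to 0.989 CPM in WT, which overlap, and it was lower at 7 h than at 3 h in both genotypes (log2 -1.59 ± 0.34 in KO and -0.98 ± 0.36 in WT). The WT call was lost without WT replicate 1 of either time (-0.92 to -0.72) and under scaling to the ribosomal list (-0.87). With values per length, Ptgs2 exceeded Ptgs1 by 2342 to 4347 times in the KO libraries at 7 h and by 628 to 686 times in the WT libraries.

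Of the PGE2 synthases, Ptges was higher in KO in all 6 conditions, while Ptges2 was higher at 7 h and lower at 3 h. Ptges was at 1628, 1637 and 1693 CPM in KO at 7 h, against 893, 952 and 938 CPM in WT. At 3 h it was at 241, 245 and 238 CPM in KO, against 129, 136 and 136.5 CPM in WT. The libraries of each genotype lay close together and far from the other genotype at both times. The log2 difference was 0.83 ± 0.05 at 7 h (edgeR adjusted p = 7.03e-16) and 0.85 ± 0.06 at 3 h (adjusted p = 6.09e-15). Unlike Ptgs2, Ptges was several times higher at 7 h than at 3 h in both genotypes, 6.85-fold in KO and 6.93-fold in WT, and the difference between these changes was -0.02 ± 0.08 (edgeR adjusted p = 0.922).

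Ptges2 was at 60.9, 66.6 and 68.6 CPM in KO at 7 h, against 42.6, 46.8 and 47.0 CPM in WT. At 3 h it was at 19.5, 22.5 and 20.1 CPM in KO, against 23.6, 26.4 and 27.1 CPM in WT. KO libraries thus lay above WT libraries at 7 h and below them at 3 h. The log2 difference was 0.52 ± 0.09 at 7 h (edgeR adjusted p = 2.00e-05) and -0.31 ± 0.10 at 3 h (adjusted p = 0.0171). The call at 3 h was lost without KO replicate 1, without WT replicate 3 and under scaling to the ribosomal list (-0.11). The change between the times was 1.66 ± 0.10 in KO and 0.82 ± 0.10 in WT, and differed by 0.84 ± 0.14 (edgeR adjusted p = 1.62e-05).

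The 2 receptor genes tested fell between 3 h and 7 h in both genotypes, and Ptger4 fell further in KO. Ptger4, which encodes the cyclic AMP-raising receptor EP4, was at 6.83, 6.05 and 5.83 CPM in KO at 7 h, against 21.6, 21.6 and 19.0 CPM in WT. At 3 h it was at 49.0, 46.3 and 47.1 CPM in KO, against 43.9, 41.4 and 35.2 CPM in WT. KO libraries lay below WT libraries at 7 h, by 3.32-fold (log2 -1.73 ± 0.13, edgeR adjusted p = 2.19e-14). At 3 h they lay just above them, a difference that did not pass the test (0.24 ± 0.11, adjusted p = 0.0857) but did under scaling to the ribosomal list (0.44) and, narrowly, when only these groups were fitted. Ptger4 was 7.59-fold lower at 7 h than at 3 h in KO (log2 -2.92 ± 0.13) and 1.93-fold lower in WT (-0.95 ± 0.11). The difference between the genotypes in this change, -1.98 ± 0.17 (edgeR adjusted p = 6.93e-12), was opposite in sign to that of Ptgs2. Exons of Ptger4 share 82 bases, 1.2% of its exon bases, with Ttc33 on the other strand, and the library kit does not mark strand. Ttc33 had 280 to 1039 counts per library, and its part in the lowest Ptger4 counts was not tested.

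Ptger2, which encodes EP2, was at 3.71, 3.11 and 3.40 CPM in KO at 7 h, against 3.62, 2.91 and 3.58 CPM in WT, and the groups overlapped (log2 0.02 ± 0.17). At 3 h it was at 7.47, 7.07 and 8.47 CPM in KO, against 6.12, 5.51 and 5.93 CPM in WT, with no overlap. The 3 h difference of 0.39 ± 0.15 (edgeR adjusted p = 0.0422) was not called without any single library, with no filter on low counts or with library totals alone. Ptger2 was lower at 7 h than at 3 h in both genotypes (-1.17 ± 0.16 in KO and -0.80 ± 0.16 in WT), and these changes did not differ beyond their error (-0.37 ± 0.22, edgeR adjusted p = 0.312). Over all 7 tested genes, 4 rose and 3 fell at 7 h relative to 3 h in KO, beside 60.4% of all genes tested that were called, and 3 rose and 3 fell in WT, beside 58%. The change differed between the genotypes for 4 of the 7, beside 12.3% of all genes tested: it was higher in KO for Ptgs2, Ptges2 and Pla2g4a and lower for Ptger4. These 4 calls held under each alternative and without each of the 12 libraries in turn.

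**Figure D2:**
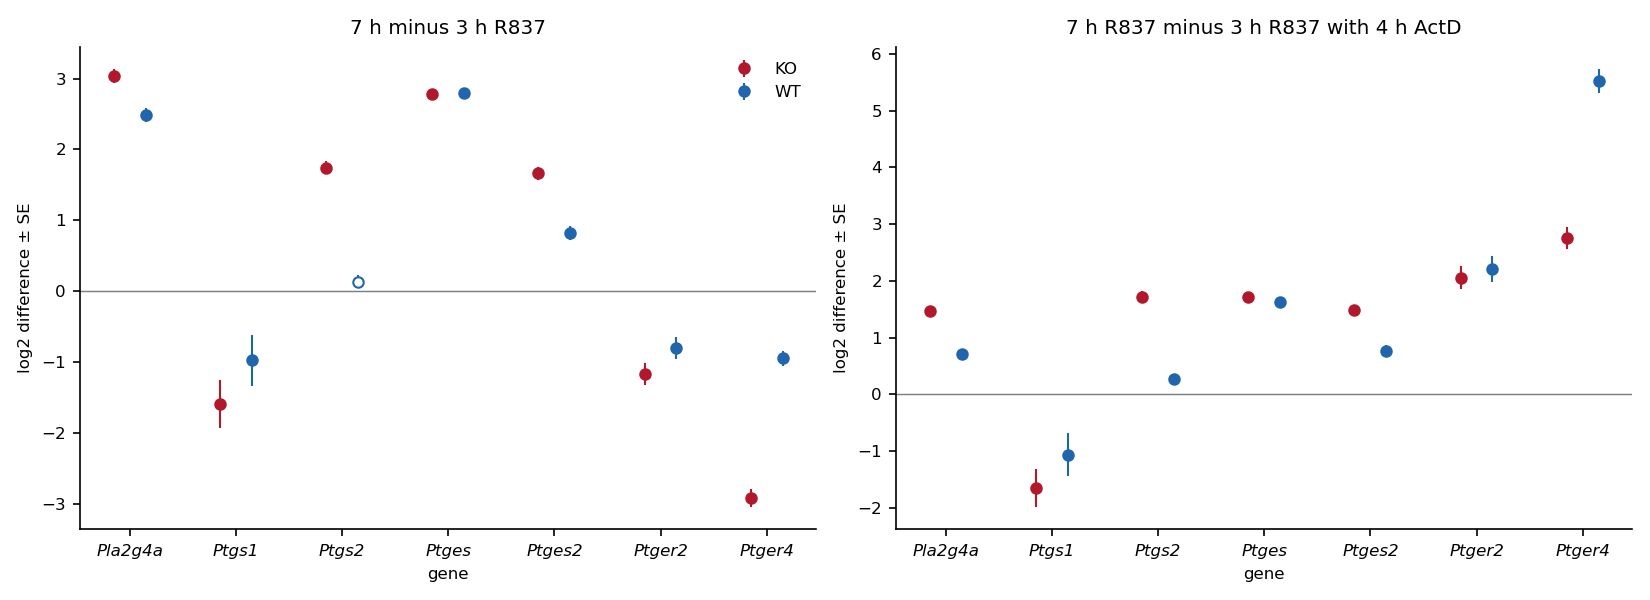
Log2 difference ± SE of R837 for 7 h against R837 for 3 h (left) and against R837 for 3 h with ActD added for 4 h (right) for the 7 tested genes, KO in red to the left of WT in blue; open points are differences that did not pass the test. On the left Ptgs2 is at 1.74 in KO and 0.13 in WT, and Ptger4 at -2.92 in KO and -0.95 in WT; on the right Ptger4 is at 2.76 in KO and 5.52 in WT.

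With values per length (RPKM), which allow genes to be compared as far as the deposited gene widths hold, the order of the members differed between the genotypes at 7 h. In KO it ran Ptgs2 (921), Ptges (396), Pla2g4a (114), Ptges2 (11.5), Ptger4 (1.64), Ptger2 (0.808) and Ptgs1 (0.316 RPKM, group means). In WT it ran Ptges (238), Ptgs2 (195), Pla2g4a (104), Ptges2 (8.53) and Ptger4 (5.83 RPKM), followed by Ptger2 and Ptgs1. Ptgs2 thus stood above Ptges in KO and below it in WT. In WT their mean CPM was nearly equal, 927.4 for Ptgs2 and 927.8 for Ptges. Their order there therefore rests on the deposited widths, 4453 and 3647 bases, and the annotation behind these widths is not given. At 3 h the order was the same in both genotypes: Ptgs2 led with 304 RPKM in KO and 186 RPKM in WT, then Ptges with 63.9 and 35.99, Pla2g4a with 15.3 and 19.4, Ptger4 with 13.8 and 11.8, Ptges2 with 4.01 and 5.05, and Ptger2 and Ptgs1 below. Given these widths, no neighbours in these 4 orders overlapped between libraries. Under ActD, overlapping neighbours were Ptger4 and Ptger2 (both genotypes at 2 h and the libraries labelled KO at 4 h), Ptgs1 and Ptger2 (both at 1 h and WT at 0.5 h), and Ptger4 and Ptges2 (WT at 0.5 h).

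Blocking transcription separated the members into falling, dipping and rising transcripts. With TMM, Ptger4 and Ptger2 fell from each time to the next in both genotypes. Ptgs2 dipped and came back, and Ptges and Pla2g4a rose, in both genotypes and relative to the average transcript. The return of Ptgs2 depended on the scaling, as given below. By a straight line over 0 to 4 h, 2 members rose and 2 fell in KO, beside 68.1% of all genes called, and 2 rose and 2 fell in WT, beside 70.3%. The slope difference between KO and WT was called for no member, and for 9 genes in all (0.0665%). Contrasts at single ActD times were added after these values had been seen; they called 7.43, 36.2, 51.3 and 68% of all genes at 0.5, 1, 2 and 4 h in KO and 7.22, 22, 49.8 and 68.5% in WT.

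Ptger4 was at 44.6, 13.7, 3.80 and 1.99% of its level without ActD after 0.5, 1, 2 and 4 h in KO, and at 47.5, 14.7, 2.60 and 1.11% in WT. Its log2 slope was -1.64 ± 0.13 per hour in KO and -2.17 ± 0.17 per hour in WT, and the difference of 0.54 ± 0.28 was not called (edgeR adjusted p = 0.604). The fall slowed with time, so a line describes it poorly. Against no ActD the log2 difference was -2.86, -4.73 and -5.68 at 1, 2 and 4 h in KO, and -2.77, -5.27 and -6.47 in WT. The genotype difference of these contrasts was -0.09 at 1 h and 0.79 at 4 h, neither called. After 2 h of ActD Ptger4 was at 1.15, 2.40 and 1.86 CPM in the libraries labelled KO and 1.08, 0.959 and 1.09 CPM in those labelled WT, and after 4 h at 0.751, 0.894 and 1.19 CPM against 0.390, 0.457 and 0.493 CPM. The groups did not overlap at either time. KO minus WT was 0.79 ± 0.24 at 2 h (edgeR adjusted p = 0.0131) and 1.03 ± 0.35 at 4 h (adjusted p = 0.018), on 7 to 60 counts per library. The 2 h call was lost without KO replicate 2 or WT replicate 2, and the 4 h call without KO replicate 3 or WT replicate 1.

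Ptger2 was at 64.8, 41.4, 22.0 and 10.8% of its level without ActD in KO and at 65.3, 38.1, 21.6 and 12.4% in WT, slopes of -0.83 ± 0.07 and -0.80 ± 0.07 per hour. Both receptor transcripts thus fell through every time point in both genotypes. KO libraries of Ptger2 lay above WT after 0.5, 1 and 4 h and overlapped them at 2 h. Of these times KO minus WT was called at 1 h alone (0.51 ± 0.18, edgeR adjusted p = 0.0398), and that call was lost in 5 of the 6 fits that left out a library, with no filter on low counts, with library totals alone (0.46) and under scaling to the ribosomal list (0.38, adjusted p = 0.16). The 0.5 h difference, 0.38 ± 0.16 (edgeR adjusted p = 0.0743), was called under that scaling (0.50, adjusted p = 0.0317) and without WT replicate 2 (0.57, adjusted p = 0.0184).

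Ptgs2 did not follow a line. It was at 71.5, 52.5, 58.8 and 102% of its level without ActD after 0.5, 1, 2 and 4 h in KO, and at 68.3, 56.5, 58.1 and 91.1% in WT. Against the libraries without ActD the log2 difference was -0.48 ± 0.09 in KO and -0.55 ± 0.09 in WT at 0.5 h, -0.93 and -0.82 at 1 h and -0.77 and -0.78 at 2 h. All 6 of these differences passed the test. At 4 h the differences, 0.03 ± 0.09 in KO and -0.13 ± 0.09 in WT, did not (edgeR adjusted p = 0.827 and 0.206). Since total RNA can fall under ActD and no spike-in was used, a level back at its start is relative to the average transcript of the library. The 4 h contrast was not fitted under scaling to the ribosomal list. Under that scaling Ptgs2 at 7 h of R837 exceeded 3 h by 1.65 in KO and 0.24 in WT. It exceeded 3 h with 4 h of ActD by more, 2.16 in KO and 0.97 in WT. Ptgs2 after 4 h of ActD thus lay below its level without ActD there, a difference that was not tested. The straight-line slope, 0.06 ± 0.06 per hour in KO and 0.04 ± 0.06 in WT, does not describe this course.

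KO libraries of Ptgs2 lay above WT libraries at every ActD time. The differences were 0.80, 0.62, 0.75 and 0.89 (SE 0.09 each) at 0.5, 1, 2 and 4 h, close to 0.73 at 3 h of R837 without ActD, and all passed the test. None of the genotype differences of the ActD contrasts was called for Ptgs2; the widest was 0.16 ± 0.13 at 4 h. Ptges behaved likewise between the genotypes, with KO minus WT of 0.85, 0.78, 0.83 and 0.75 (SE 0.06 each) at the same times.

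Ptges was at 152, 162, 179 and 209% of its level without ActD in KO and at 151.5, 170, 181 and 224% in WT. Pla2g4a was at 161, 189, 234 and 296% in KO and at 166, 187, 254 and 342% in WT. These 2 were the members whose TMM-scaled level grew at each time in both genotypes. With the deposited values per length, Ptges in WT did not grow at each time: it averaged 60.2 RPKM after 1 h and 59.15 RPKM after 2 h. The slope of Ptges, 0.21 ± 0.03 per hour in KO and 0.25 ± 0.03 in WT, was 0.08 and 0.05 and not called when libraries were scaled to the ribosomal list, which lowered the median slope of all genes by 0.14 in KO and 0.19 in WT. The slope of Pla2g4a, 0.34 ± 0.04 in KO and 0.41 ± 0.04 in WT, was 0.20 and 0.21 under that scaling and still called. Pla2g4a was at 149, 137 and 144 CPM in the libraries labelled KO after 4 h of ActD, against 194, 195 and 231 CPM in those labelled WT. KO libraries lay below WT libraries at each ActD time, and the difference was -0.37, -0.31, -0.44 and -0.53 (SE 0.09 each), called each time. The 0.5 h call was lost without WT replicate 3 (-0.22) and under scaling to the ribosomal list (-0.22), and the 1 h call without any of 4 of its 6 libraries (-0.29 to -0.25).

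The straight-line slopes of Ptges2 and Ptgs1 over 0 to 4 h did not pass the test. Ptges2 was at 124, 139, 134.5 and 113% of its level without ActD in KO and at 106, 95.8, 112 and 104% in WT. At 1 h the contrast with no ActD was 0.48 ± 0.10 in KO and -0.06 ± 0.10 in WT, and it differed by 0.54 ± 0.14 (edgeR adjusted p = 0.0175), beside 10.7% of all genes with such a difference at that time. At 0.5, 2 and 4 h that difference was not called for any member, beside 0.0218, 0.0582 and 0.291% of all genes. The 1 h difference was not fitted under scaling to the ribosomal list. Under that scaling KO minus WT of Ptges2 was 0.10 after 1 h of ActD and -0.11 at 3 h, neither called (0.23 and -0.31 with TMM). Under scaling to the ribosomal list the Ptges2 slopes turned negative, -0.12 in KO and -0.16 in WT, and were called. Over 0 to 2 h alone the Ptges2 slope in KO was 0.19 per hour and called (edgeR adjusted p = 0.0118), as was the change at 2 h divided by its hours (0.22, adjusted p = 0.000399). KO minus WT of Ptges2 after 1 h of ActD was 0.23 ± 0.10, not called (28.8 CPM in KO and 24.6 CPM in WT on average, with overlapping libraries), but was called when only these groups were fitted (0.25, edgeR adjusted p = 0.0409) and without WT replicate 1 (0.35, adjusted p = 0.0236). After 4 h it was -0.20 ± 0.10, not called, and -0.28 and called without WT replicate 1 (adjusted p = 0.0406).

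The Ptgs1 slope was 0.04 ± 0.08 per hour in KO and -0.07 ± 0.09 in WT, and that in WT was -0.26 and called under scaling to the ribosomal list (edgeR adjusted p = 0.0171). After 4 h of ActD Ptgs1 was at 2.85 to 3.90 CPM in the libraries labelled KO and 1.81 to 2.01 CPM in those labelled WT, with no overlap. This difference of 0.77 ± 0.32 did not pass the test (edgeR adjusted p = 0.0575). It was called with library totals alone (0.82), with no filter on low counts (0.80), when only these groups were fitted (0.78) and under scaling to the ribosomal list (1.06). The 2 h difference, 0.58 ± 0.33, was not called, and was called with no filter (0.60) and with only its groups fitted (0.60).

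Of the 7 tested genes, 2 were higher and 1 lower in KO than in WT after 0.5 h of ActD, beside 26.4% of all genes called. The counts were 3 higher and 1 lower at 1 h (17.4%), at 2 h (30.2%) and at 4 h (35.6%). The genes shared by all 4 times were Ptgs2 and Ptges, higher, and Pla2g4a, lower.

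**Figure D3:**
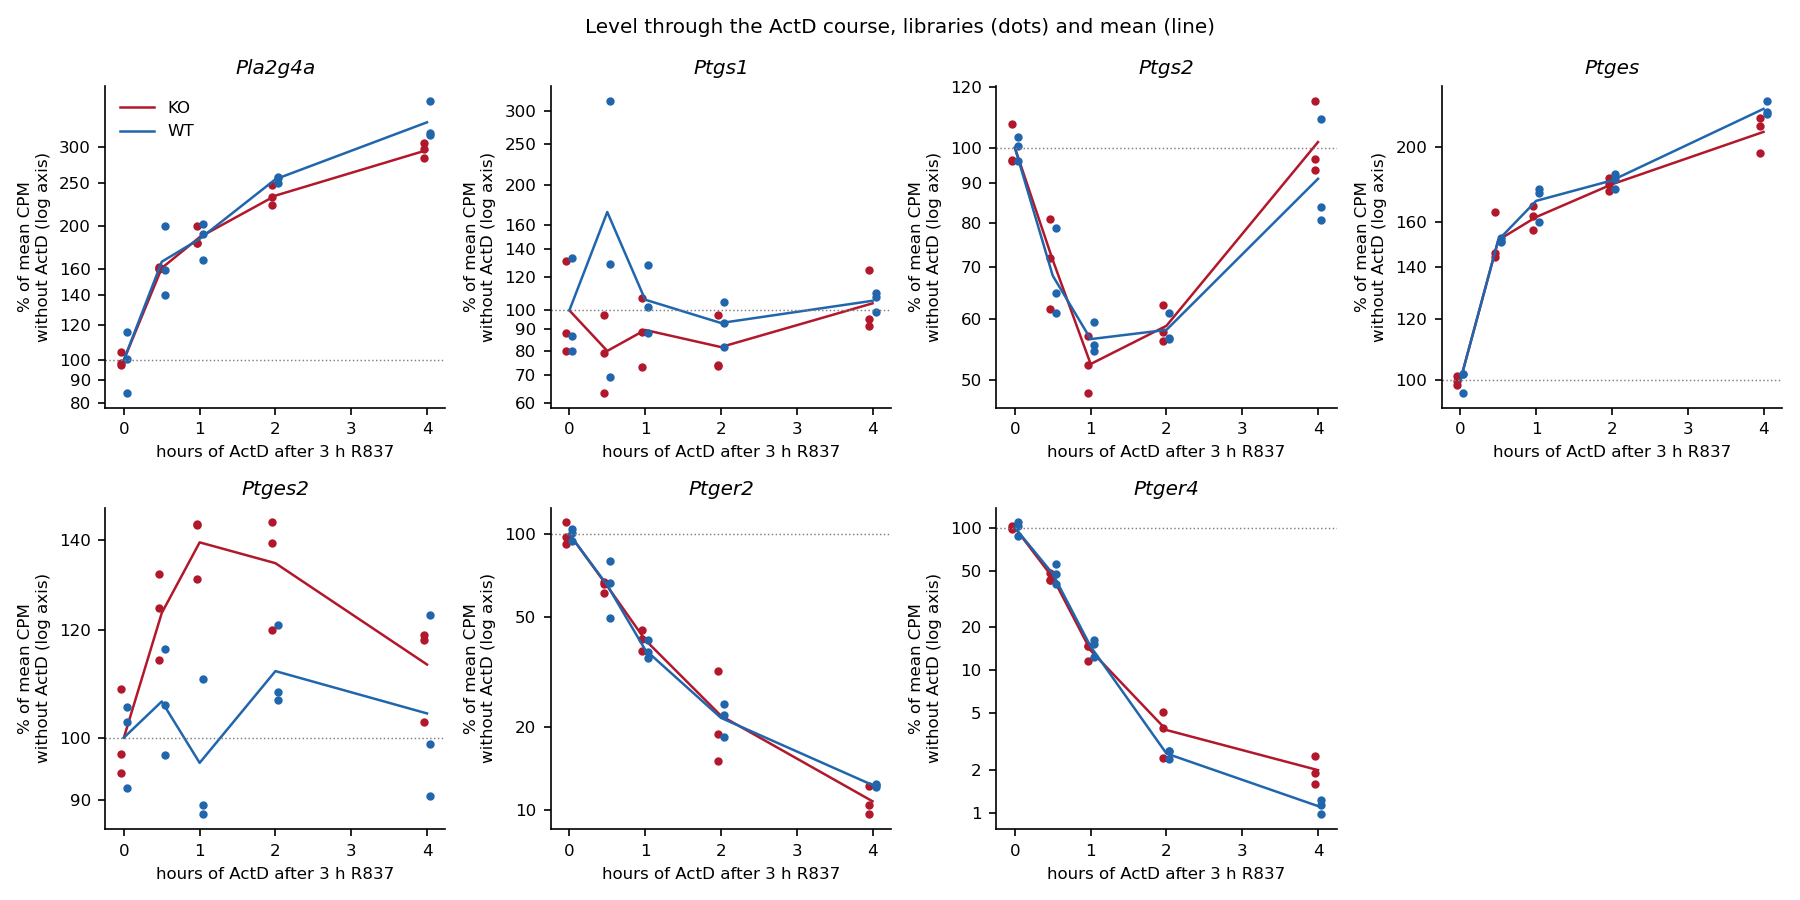
Level of the 7 tested genes as a percentage of their mean CPM without ActD (log axis), against hours of ActD after 3 h of R837; dots are libraries and lines join the means of KO (red) and WT (blue). Ptger4 ends at 1.99% in KO and 1.11% in WT, Ptgs2 dips to 52.5% in KO and 56.5% in WT at 1 h, and Pla2g4a ends at 296% in KO and 342% in WT.

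**Figure D4:**
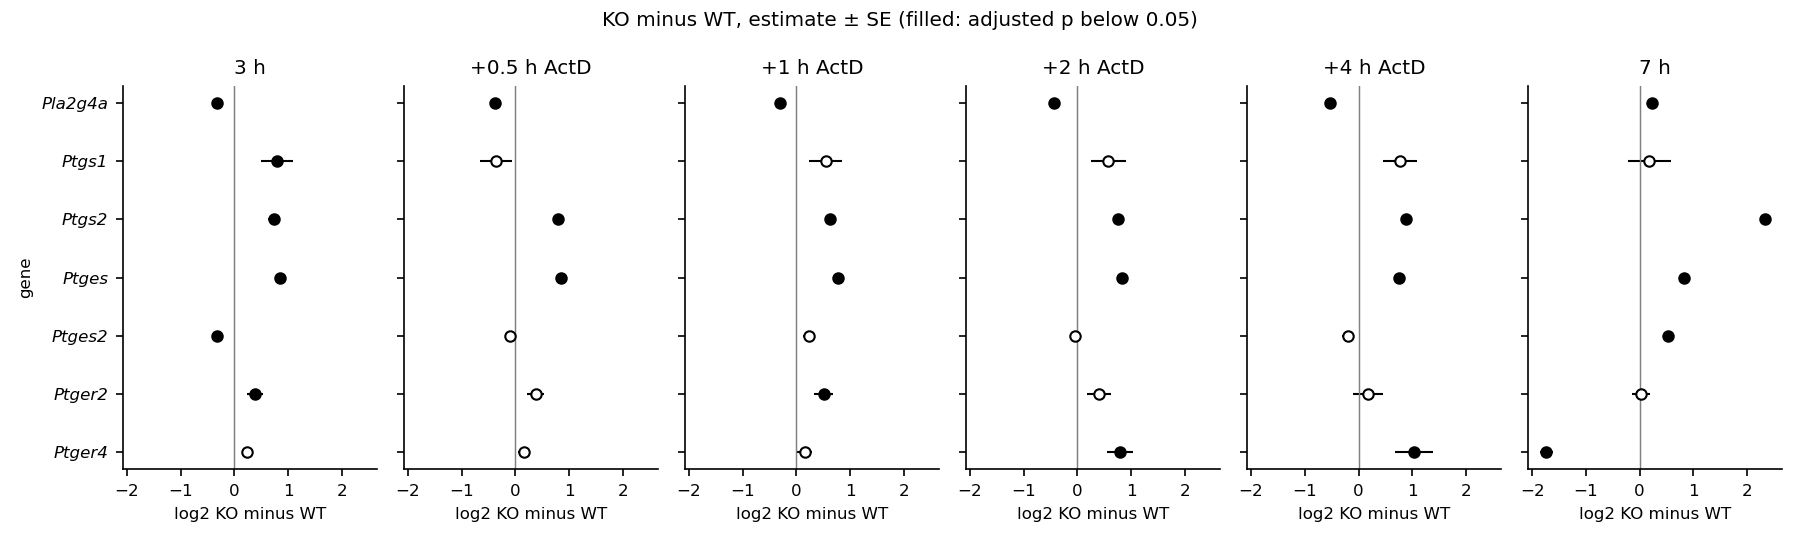
Log2 difference KO minus WT ± SE of the 7 tested genes in each of the 6 conditions, on a shared axis; filled points passed the test. Ptgs2 lies between 0.62 and 0.89 in 5 conditions and at 2.34 at 7 h, Ptges between 0.75 and 0.85 in all 6, and Ptger4 at -1.73 at 7 h.

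Transcripts at 7 h of R837 were also set against 3 h of R837 followed by 4 h of ActD, groups that differ in whether transcription could go on. In KO 6 members were higher and 1 lower at 7 h, beside 74.1% of all genes called, and the same numbers held in WT, beside 75.3%. Ptgs1 was the member that was lower in both, a call that was lost in WT with library totals alone (-0.82) and under scaling to the ribosomal list (-0.34). Ptger4 was 6.76-fold higher at 7 h in KO (log2 2.76 ± 0.19) and 46.0-fold higher in WT (5.52 ± 0.21). The WT value rests on 7, 10 and 9 counts in the libraries with ActD, so its size is uncertain. Ptgs2 was 3.29-fold higher in KO (1.72 ± 0.10) and 1.21-fold higher in WT (0.27 ± 0.09, edgeR adjusted p = 0.00971). The WT difference was 0.22 and not called without replicate 3 of WT after 4 h of ActD. It depended on the scaling: the ribosomal list moved the median of all genes by 0.72 in WT and 0.44 in KO. Under that scaling the Ptgs2 difference was 0.97 in WT and 2.16 in KO, both called. The genotypes differed in 4 members, beside 14.6% of all genes: Ptgs2 by 1.45 ± 0.13, Pla2g4a by 0.76 ± 0.13, Ptges2 by 0.72 ± 0.14 and Ptger4 by -2.77 ± 0.36. Under scaling to the ribosomal list these differences were 1.19, 0.47, 0.43 and -3.06, all still called. Ptges, 3.28-fold higher in KO and 3.10-fold in WT, did not differ beyond its error (0.08 ± 0.08, edgeR adjusted p = 0.529). These contrasts share the 7 h libraries with those of 7 h against 3 h, so they are not independent of them.

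Among 5244 abundant genes, those whose group means followed Ptgs2 most closely over the 12 groups were Il1a (Pearson r = 0.976), Il6 (0.961), Il1b (0.940), Il1rap (0.915) and Ago3 (0.908). Il1a, Il6 and Il1b encode inflammatory cytokines and Il1rap a subunit of the interleukin 1 receptor. Il1a averaged 718 CPM in KO and 86.6 CPM in WT at 7 h, and Il6 averaged 364.5 CPM in KO and 28.2 CPM in WT. Those most like Ptges were Cd38 (r = 0.992), Fpr2 (0.990), Rhoq (0.989), Tarm1 (0.987) and Csf3r (0.985). Cd38 encodes an ectoenzyme that consumes NAD, Fpr2 a formyl peptide receptor and Csf3r the G-CSF receptor. Cd38 averaged 636 CPM in KO and 326.5 CPM in WT at 7 h. The 12 groups share genotypes and treatments, and the correlations are a description.

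Other genes around PGE2 were taken from 7 lists of 57 genes, of which 44 were tested. KO against WT, 13 rose and 13 fell at 7 h, beside 15.5% of all genes tested called higher and 15.1% lower, and 11 rose and 8 fell at 3 h, beside 15.2% and 12.6%. The median log2 difference of the 44 was 0.06 at 7 h and 0.09 at 3 h, against -0.01 and 0.01 over all genes. Of 12 factors known to act on the Ptgs2 or Ptges gene or transcript, 9 rose and 1 fell at 7 h and 8 rose and none fell at 3 h. Under scaling to the ribosomal list 7 rose at 7 h and 11 at 3 h, where 90.2% of all genes called were then higher in KO. Among them, at 7 h, were the NF-kB subunits Nfkb1 (0.71 ± 0.07) and Rela (0.48 ± 0.10), Zfp36 (0.46 ± 0.09), whose product binds AU-rich elements and speeds decay, and Elavl1 (0.30 ± 0.06), whose product binds such elements and is known for stabilizing transcripts. At 3 h Nfkb1 (0.32 ± 0.07), Rela (0.60 ± 0.10) and Zfp36 (0.45 ± 0.09) were higher in KO too. The RNA-binding protein gene Celf2 was higher in KO at 3 h (0.41 ± 0.11), and its change between the times was lower in KO than in WT (-1.03 ± 0.16, edgeR adjusted p = 9.21e-06).

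Of the 5 other terminal prostanoid synthase genes tested, none rose and 4 fell at 7 h, under every scaling tried: the thromboxane synthase gene Tbxas1 (-0.60 ± 0.07), the prostaglandin D2 synthase gene Hpgds (-0.55 ± 0.08), Akr1b3 (-0.40 ± 0.07) and Fam213b (-0.32 ± 0.10). At 3 h 3 fell, Hpgds (-0.28 ± 0.08), Fam213b (-0.27 ± 0.09) and Akr1b3 (-0.21 ± 0.07). None of these 3 was called under scaling to the ribosomal list (-0.075 to -0.004), which raised the median of all genes by 0.20 at that time. The gene of the prostacyclin receptor, Ptgir, was the only other prostanoid receptor tested and was higher in KO at 7 h (0.61 ± 0.14) and at 3 h (0.66 ± 0.16). Abcc4, a transporter able to export PGE2, was higher in KO at 7 h (0.82 ± 0.10), while 4 of the 6 tested genes of transport and breakdown were lower, among them Ptgr1 (-0.56 ± 0.09), which encodes a reductase acting on prostaglandins, and Cbr1 (-0.31 ± 0.09). At 3 h 3 of these 6 were lower and none higher, with 2 lower and 1 higher under scaling to the ribosomal list.

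Of 7 other phospholipase genes tested, Pla2g7, which encodes the platelet-activating factor acetylhydrolase, was higher in KO by 1.13 ± 0.06 at 7 h and 1.12 ± 0.06 at 3 h. Pla2g15, a lysosomal phospholipase gene, was lower at 7 h (-0.78 ± 0.10), as was Pla2g5 (-1.02 ± 0.32). In the lipoxygenase list of 8, Alox5ap, whose product hands arachidonate to 5-lipoxygenase, was lower at 7 h (-0.40 ± 0.06) and at 3 h (-0.23 ± 0.06; -0.03 and not called under scaling to the ribosomal list). Of the 5 genes tested that store or free arachidonate by other routes, Acsl4, which attaches arachidonate to coenzyme A, was higher at 7 h (0.32 ± 0.08) and the diacylglycerol lipase gene Daglb was lower (-0.90 ± 0.11), and none was called at 3 h. The change from 3 h was lower in KO for Daglb (-0.98 ± 0.14), Pla2g15 (-0.85 ± 0.15) and Tbxas1 (-0.46 ± 0.10) and higher for Abcc4 (0.55 ± 0.15), Acsl4 (0.40 ± 0.11) and Nfkb1 (0.39 ± 0.10).

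Relative to 3 h, 9 of the 44 genes rose and 25 fell in KO and 9 rose and 26 fell in WT, with medians of -0.42 and -0.34, beside 28.7% of all genes tested called higher and 31.7% lower in KO and 27.3% and 30.7% in WT. Tbxas1 fell by 1.44 on the log2 scale in KO and by 0.98 in WT, Cbr1 by 1.07 and 1.09, and Alox5ap by 1.07 and 0.90. Cysltr1, which encodes a leukotriene receptor, rose by 1.70 in KO and 1.52 in WT. Under ActD, 10 of the 12 factors on the Ptgs2 or Ptges gene or transcript had a falling slope in KO and 11 in WT, beside 35.8% of all genes with a falling slope in KO and 34.8% in WT. Zfp36 fell by 1.25 per hour in KO and by 1.49 per hour in WT.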

How the data were processed

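RNA-seq libraries of 36 macrophage samples (12 groups of 3) were analysed from deposited tables. GSNAP alignment to GRCm38 is recorded in the submitters' processing notes; the counting program, its annotation and its strand setting are not given in the sources used here. Per the file headers, the authors deposited for each gene a raw read count, an RPKM value and a gene width. Counts were whole numbers and carried every test; the deposited RPKM values served to compare levels between genes. Gene symbols came from GENCODE M21 (52403 of 52636 identifiers named). Totals of 20.3 to 46.1 M counts per library set the precision, and a gene near 1 CPM has few counts.

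Counts were scaled by TMM and filtered with filterByExpr (minimum count 10, minimum total 15). One edgeR 4.0.16 quasi-likelihood model of the 12 groups (R 4.3.3, 13748 genes, biological coefficient of variation 7.5%) gave all contrasts, with Benjamini-Hochberg adjustment over all genes at 0.05; SE is the log2 difference over the square root of F. A second model fitted a line over hours of ActD per genotype on 30 libraries (13537 genes, 12.7%). Both were also run on simulated data with few changed genes. Many genes changed here, so that run does not show how the models behave in these data. CPM values are TMM-scaled. Replicates are numbered in the order of the records; replicates differed by more than sampling noise. The members and lists were chosen with earlier results of these data known. All members are named, and for each other list at most 4 called genes, those with the highest mean CPM; for the genes most like Ptgs2 and Ptges, the 5 with the highest Pearson r among genes averaging at least 20 CPM. Alternatives were DESeq2 1.42.0, DESeq2 size factors, library totals alone, scaling to 88 ribosomal protein and elongation factor genes (0.73 to 1.24% of counts), no filter on low counts, a filter at 1 CPM in 3 libraries, fits of only the groups compared, leaving out each library, and shorter ActD windows. Promoter windows came from RefSeq (GRCm38.p6) and 3′ regions from GENCODE M21.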

Additional observations from a re-analysis of the deposited data

Results flagged for a closer look

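In 9 cases the effect of a treatment on a member differed between KO and WT by the test of the difference itself (edgeR quasi-likelihood test, 3 libraries a group). For 7 h against 3 h of R837, the change was higher in KO for Ptgs2 by 1.608 ± 0.133 log2 (adjusted p = 4.46e-12), for Ptges2 by 0.838 ± 0.137 (adjusted p = 1.62e-05) and for Pla2g4a by 0.556 ± 0.127 (adjusted p = 0.00178), and for Ptger4 it was -1.975 ± 0.166 (adjusted p = 6.93e-12). For 7 h of R837 against R837 followed by 4 h of ActD, the difference was 1.45 ± 0.133 for Ptgs2 (adjusted p = 1.08e-10), 0.761 ± 0.125 for Pla2g4a (adjusted p = 2.24e-05), 0.72 ± 0.138 for Ptges2 (adjusted p = 0.000229) and -2.766 ± 0.359 for Ptger4 (adjusted p = 2.84e-07). Both sets name the same 4 of the 7 tested members and use the same 7 h libraries, so they are not separate findings. Of all genes tested, 12.3% were called in the first contrast and 14.6% in the second. After 1 h of ActD against none, Ptges2 differed by 0.544 ± 0.14 (edgeR adjusted p = 0.0175). This contrast was added after the data had been seen, and Ptges2 was the only member so called at that time, beside 10.7% of all genes. It was not fitted under scaling to the ribosomal list, where KO minus WT of Ptges2 was 0.10 after 1 h of ActD and -0.11 at 3 h, neither called.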

How the results depend on the processing

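Of 105 member results, 76 stayed on the same side of the threshold under every alternative run, with no called value changing sign. Over 1827 such values, 52 lost a call, 19 gained one, 11 reversed, and 75 with no call either way changed sign, such as Ptger2 in KO against WT at 7 h (0.02, and -0.077 with library totals alone). The Ptges2 slope under ActD reversed to -0.123 in KO and -0.159 in WT with scaling to the ribosomal list. The Ptgs2 slope reversed, since its course is not a line, to -0.967, -0.93 and -0.383 per hour in KO and -1.101, -0.823 and -0.392 in WT when taken from 0.5, 1 and 2 h alone, and to -0.369 in KO and -0.366 in WT over 0 to 2 h; the Ptges2 slope difference was 0.544 at 1 h alone. Counts that moved: KO against WT called 2047 genes after 0.5 h of ActD when only those groups were fitted (3626 in the full model, fewer libraries to estimate the spread), and 2202 to 4268 at 3 h without 1 library (3818 with all), of which 2 to 5 were members (6 with all); 1 h of ActD gave 2 to 4 members (4 with all). At 3 h, 2202 genes and 3 members were called without KO replicate 1, and 2375 genes and 2 members without WT replicate 3. Slopes called 1022 and 4974 genes in KO (9221) and 992 and 3023 in WT (9514) when taken from 0.5 and 1 h alone; genotype differences of slope, 9 in the line, were 3, 1477 and 40 from 0.5, 1 and 4 h alone, 16 with DESeq2, 0 over 0 to 2 h, and 3 to 10 without 1 library, with 1 member (Ptges2) at 1 h alone and none otherwise. The causes were not tested.

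Scaling to the ribosomal list moved the median of all genes by 0.205 at 3 h, 0.135, -0.137, 0.155 and 0.28 after 0.5, 1, 2 and 4 h of ActD, and 0.001 at 7 h in KO against WT; the share of called genes that were higher in KO became 90.2% at 3 h (54.7% with TMM) and 78.8, 17.1, 78.3 and 89.3% under ActD (51.9, 43.1, 48.8 and 49.8%). With library totals alone the share at 7 h was 30.7% (50.6%). No paired analysis was possible because the labels carry no replicate numbers and do not tie libraries to mice across groups. Ptger4 after 4 h of ActD rests on 7 to 32 counts per library, so small differences there were not detectable at this depth.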
